A study of Mus musculus with 24 samples.

Results

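A set of 8 genes of osmolyte and amino acid transport was followed in mouse brain: the transporters Slc38a2, Slc38a1, Slc5a3, Slc6a6, Slc7a5, Slc3a2 and Slc7a11, and the transcription factor Nfat5. They were chosen by name, with their morphine response in the ventral tegmental area (VTA) of VDR-/- mice already known, and they are 8 of the 30270 genes in the tables. All 8 were above the filter on low values in every comparison. RNA-seq was made from bilateral micropunches of frozen nucleus accumbens (NAc) and VTA of 12 mice on a C57BL/6 background, 3 for each combination of genotype and injection. Same-numbered libraries of both regions were taken to come from the same mouse, which rests on the numbers in the labels. The groups were VDR+/+ mice given PBS (mice 1, 2 and 3), VDR+/+ mice given morphine at 5 mg/kg (mice 1.0, 1.1 and 1.2), VDR-/- mice given PBS (mice 7, 8 and 9) and VDR-/- mice given morphine at 5 mg/kg (mice 2.0, 2.1 and 2.2). VDR-/- mice lack the vitamin D receptor in the whole body. Per the study's methods they were raised on a diet rich in calcium, which is not stated for VDR+/+ mice, so diet and genotype cannot be told apart. Tissue was collected 90 min after injection, while another passage of the methods has 60 min for mice injected with saline, so time and injection may differ together. Library names are styled differently for PBS and morphine mice, so injection and any batch tied to those names cannot be told apart. The study set out to ask how morphine acts on reward regions when vitamin D signalling is absent.

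Brain cells hold their volume by moving organic osmolytes across the membrane. Slc5a3 carries myo-inositol into the cell with sodium, Slc6a6 carries taurine, and Slc38a2 carries small neutral amino acids such as alanine and glutamine. NFAT5 is the transcription factor known to raise such carriers when the surroundings turn hypertonic. Slc38a1 is a close relative of Slc38a2 and supplies neurons with glutamine. Slc7a5 exchanges large neutral amino acids, the precursors of dopamine and serotonin among them, and Slc7a11 takes up cystine in exchange for glutamate. Both need Slc3a2, the shared heavy chain that brings them to the membrane. Slc38a2, Slc7a5, Slc7a11 and Slc3a2 are also known targets of ATF4, the factor of the amino acid response.

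Of the 8 genes, 5 could be matched to RefSeq promoters (GRCm38.p6, 250 bases before to 50 after the start of transcription), namely Slc38a2, Slc5a3, Nfat5, Slc3a2 and Slc7a11. The 3 printed here belong to the genes with the largest rise after morphine in the NAc of VDR-/- mice. Capitals mark matches, on either strand, to the amino acid response element TGATGNAAN or to the antioxidant response element core TGACNNNGC. The Slc7a11 window is chr3:50443564-50443863, the Slc38a2 window chr15:96699679-96699978 (both minus strand) and the Slc5a3 window chr16:92058072-92058371 (plus strand).
Slc7a11: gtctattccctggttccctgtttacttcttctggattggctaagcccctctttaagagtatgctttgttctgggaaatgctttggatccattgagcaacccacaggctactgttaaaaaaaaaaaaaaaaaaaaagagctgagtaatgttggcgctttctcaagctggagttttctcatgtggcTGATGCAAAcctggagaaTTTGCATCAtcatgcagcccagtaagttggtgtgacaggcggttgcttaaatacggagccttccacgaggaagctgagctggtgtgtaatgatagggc
Slc38a2: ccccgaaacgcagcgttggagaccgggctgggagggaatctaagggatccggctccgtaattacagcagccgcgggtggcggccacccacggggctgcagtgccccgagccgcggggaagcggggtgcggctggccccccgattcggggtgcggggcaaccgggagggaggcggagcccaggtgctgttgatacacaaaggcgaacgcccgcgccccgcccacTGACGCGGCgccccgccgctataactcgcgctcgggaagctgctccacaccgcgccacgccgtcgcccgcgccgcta
Slc5a3: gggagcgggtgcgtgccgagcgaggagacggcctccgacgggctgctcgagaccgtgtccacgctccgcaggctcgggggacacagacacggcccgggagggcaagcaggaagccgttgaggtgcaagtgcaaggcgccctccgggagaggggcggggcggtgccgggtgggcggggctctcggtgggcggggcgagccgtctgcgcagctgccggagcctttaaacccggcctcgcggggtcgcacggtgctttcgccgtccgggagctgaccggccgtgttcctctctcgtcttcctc
Slc7a11 held 2 matches to the amino acid response element, TGATGCAAA starting 66 bases before the start of transcription and TTTGCATCA, its reverse-strand form, starting 48 bases before it. At least 1 such match was present in 3.95% of 32851 RefSeq promoters of that length. Slc38a2 held 1 antioxidant response element core, TGACGCGGC, starting 27 bases before the start, and 12.4% of promoters held that core. None of the 5 windows held the core TGGAAA of the tonicity element bound by NFAT5 (present in 21.4% of promoters) or the cAMP response element TGACGTCA (1.79%). No match says only that these letters are absent from this window.

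Libraries held between 9328726 and 30184426 reads on genes, and a single one of the 8 genes had between 169 and 12902 reads in a library. Levels are given as CPM, the reads of a gene scaled to the size of its library, with TMM factors set over all 24 libraries together. Vdr had between 0 and 17 reads in every library, with overlapping ranges in both genotypes, so the genotype rests on the labels. Because these are bulk tissue samples, fewer cells of a type and less RNA per cell cannot be told apart. Several sums of cell type markers differed between the injections, while that of dopamine neurons in the VTA overlapped between them in VDR-/- mice. The summed level of 8 medium spiny neuron markers in the NAc was 3204 to 3682 CPM in VDR+/+ mice given PBS and 1964 to 2515 CPM after morphine, and 2796 to 3254 against 1781 to 2073 CPM in VDR-/- mice. In the VTA, 7 oligodendrocyte markers summed to 12153 to 13252 CPM in VDR+/+ PBS mice and 5965 to 10178 CPM after morphine. In VDR-/- mice they summed to 11697 to 12411 against 7814 to 8874 CPM. The 7 microglia markers of the VTA summed to 329 to 386 against 199 to 219 CPM in VDR+/+ mice. In VDR-/- mice they summed to 270 to 355 against 213 to 238 CPM. The 8 astrocyte markers of the VTA summed to 4963 to 5307 against 4195 to 4746 CPM in VDR+/+ mice and overlapped in VDR-/- mice. The 8 dopamine neuron markers of the VTA summed to 1903 to 2465 CPM in VDR+/+ PBS mice, 125 to 406 CPM in VDR+/+ morphine mice, 360.0 to 1755 CPM in VDR-/- PBS mice and 433 to 909 CPM in VDR-/- morphine mice. All 8 were detected there, whereas 3 of them stayed under 0.5 CPM in each NAc group. The part of these shifts in the results below was not tested.

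**Figure D1:**
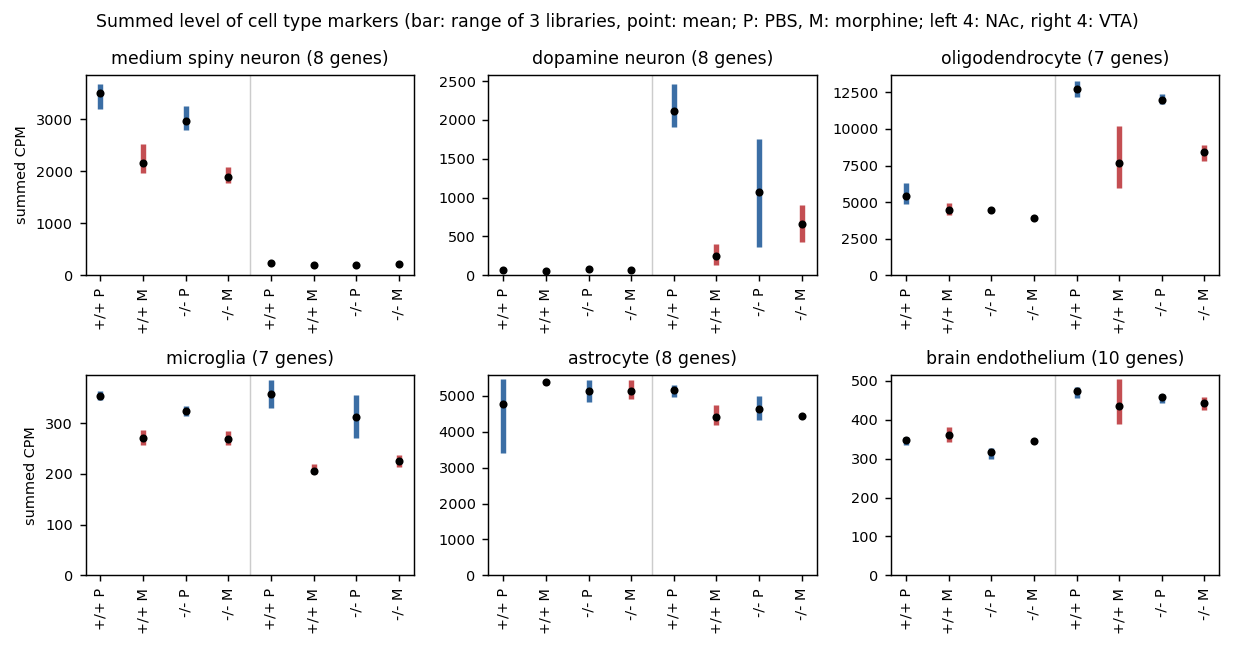
Summed CPM of 6 marker lists (y axis) in the 8 groups (x axis), with bars for the range of 3 libraries and points for the mean. Medium spiny neuron markers were lower after morphine in the NAc of both genotypes, oligodendrocyte markers were lower after morphine in the VTA of both, and dopamine neuron markers of the VTA were lowest in VDR+/+ morphine mice (125 to 406 CPM).

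One library stood apart. In VDR+/+ PBS mouse 2 the NAc library had few reads on genes with long exons: Spearman's rho between exon length and the gene's level relative to the other NAc libraries was -0.47 there, and -0.085 to 0.27 in the other 11. Nfat5, with 18378 exon bases, was at 95.3 CPM in this library against 192 and 213 CPM in mice 1 and 3. Slc7a11 was at 14.4 against 40.3 and 34.6 CPM, and Slc5a3 at 31.0 against 64.8 and 51.5 CPM. Slc38a2, Slc6a6, Slc7a5 and Slc3a2 lay between 0.97 and 1.06 times the mean of mice 1 and 3. Values that moved most when this library was left out are given with and without it.

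Levels of different genes were compared as CPM per kb of exon over the 12 libraries of a region. In the NAc the taurine carrier Slc6a6 was highest at 27.5 ± 4.07 (SD, n = 12), followed by the heavy chain Slc3a2 at 22.5 ± 1.09, and the ranges of these neighbours overlapped. Slc38a1 (14.8 ± 2.04), Slc7a5 (14.4 ± 1.08) and Slc38a2 (13.1 ± 3.11) had overlapping ranges too. Nfat5 followed at 10.6 ± 1.79, Slc5a3 at 5.82 ± 1.74 and Slc7a11 at 2.82 ± 0.90. In the VTA the order began with Slc3a2 (26.2 ± 1.68), Slc38a1 (26.1 ± 1.99), Slc38a2 (23.4 ± 5.10), Slc7a5 (20.9 ± 2.35) and Slc6a6 (18.1 ± 2.07), each overlapping its neighbour. The place of Slc38a2 differed between groups: in VDR-/- morphine mice it was the highest, at 30.4 ± 1.40 (n = 3) against 25.8 ± 1.35 for Slc38a1 and 25.1 ± 1.32 for Slc3a2 without overlap, and in VDR-/- PBS mice its mean of 20.1 ± 6.27 was below that of Slc7a5, 23.3 ± 1.14. Nfat5 (9.84 ± 0.58), Slc5a3 (7.23 ± 1.63) and Slc7a11 (3.58 ± 0.83) were the lowest 3 in both regions.

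**Figure D2:**
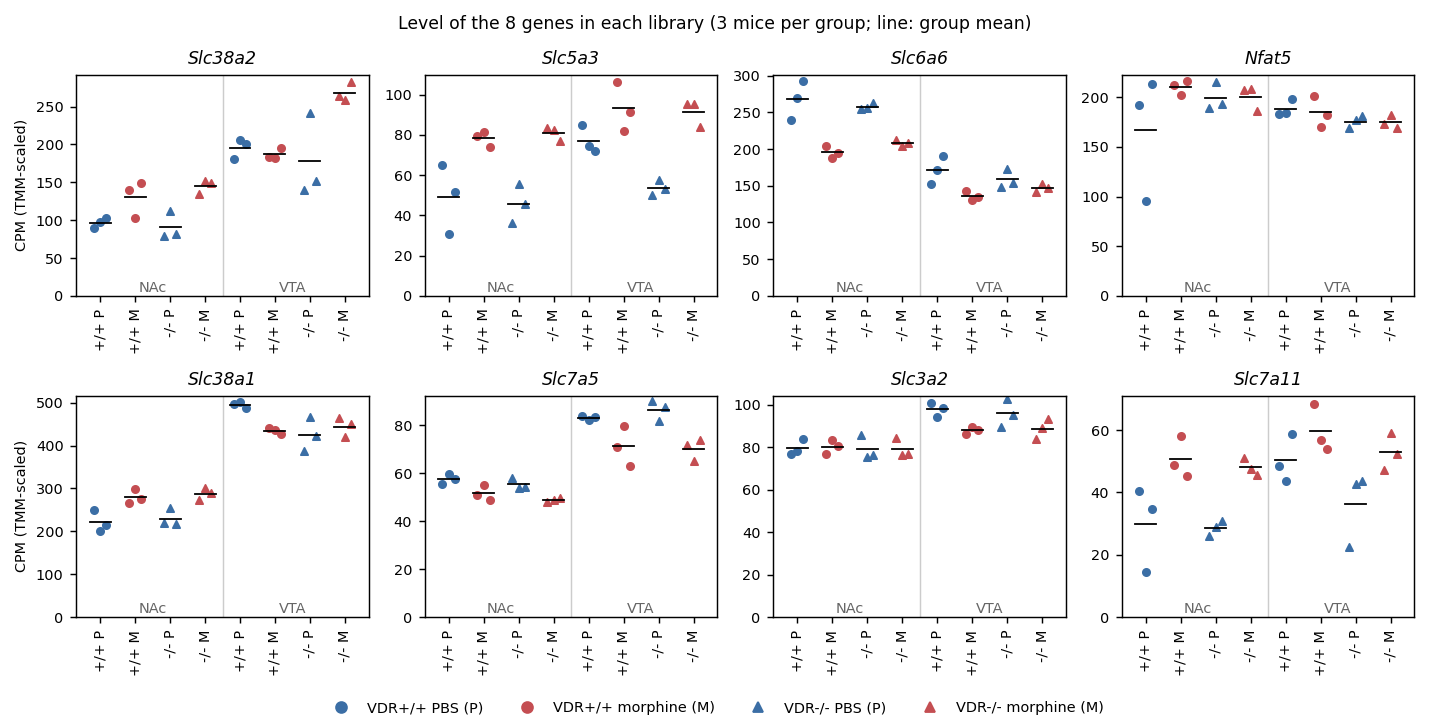
CPM of each of the 8 genes (y axis, from 0) in the 3 libraries of each group (x axis), circles for VDR+/+ and triangles for VDR-/- mice, with lines for the group means. Slc38a2, Slc5a3 and Slc7a11 were higher after morphine in the NAc and VTA of VDR-/- mice, and the Nfat5 point at 95.3 CPM is VDR+/+ PBS mouse 2 in the NAc.

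The morphine response in the VTA of VDR-/- mice was among the values known when the genes were chosen, so it is described without a test. The transporters Slc38a2, Slc5a3 and Slc7a11 were higher. Slc38a2 was at 139.6, 241 and 152 CPM in PBS mice 7, 8 and 9 and at 264, 258.5 and 282 CPM after morphine. Slc5a3 was at 50.1, 57.8 and 53.2 CPM after PBS and at 95.1, 95.1 and 83.9 CPM after morphine. Slc7a11 was at 22.5, 42.8 and 43.7 CPM after PBS and at 47.2, 59.1 and 52.4 CPM after morphine. For these 3 genes the morphine libraries lay above every PBS library, but mouse 8 was close to the morphine range for Slc38a2 and mouse 7 was far below its group for Slc7a11. The deposited table of this contrast leaves out PBS mouse 8. On its scale, as log2(value + 1), morphine minus PBS was 0.89 (SE 0.057) for Slc38a2, 0.84 (SE 0.069) for Slc5a3 and 0.76 (SE 0.24) for Slc7a11. With mouse 8 included, the changes were 0.64, 0.77 and 0.61. Leaving out mouse 7 took Slc7a11 to 0.30, and leaving out mouse 9 took it to 1.22.

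The other genes of the set moved less in this tissue. Slc7a5 was lower, at 90.2, 81.8 and 87.3 CPM after PBS and at 71.6, 65.0 and 73.6 CPM after morphine, a log2 change of -0.33 (SE 0.065). Slc38a1 overlapped between the groups, with 388 to 466 CPM after PBS and 419 to 465 CPM after morphine (log2 change 0.15, SE 0.058). Slc6a6, Nfat5 and Slc3a2 had log2 changes of -0.03, 0.02 and -0.04. The PBS and morphine libraries overlapped for these 3 genes, a transcription factor of the osmotic response, the taurine carrier and the shared heavy chain.

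The same contrast in the NAc of these VDR-/- mice was tested with limma on log2(value + 1), adjusting over all 15820 genes tested. Of the 8 genes, 6 passed an adjusted p of 0.05, 4 higher and 2 lower after morphine, where 19.1% of all genes passed (9.94% higher and 9.13% lower). By their numbers, the same mice gave the VTA libraries whose response was known when the genes were chosen. This count is therefore not independent of that choice. The median log2 change was 0.18 over the 8 genes and -0.0065 over all genes. Slc38a2 was at 79.8, 112 and 81.5 CPM in PBS mice 7, 8 and 9 and at 134.5, 152 and 148.5 CPM after morphine, a rise of 0.69 (SE 0.11, adjusted p = 0.0015). Slc5a3 was at 36.0, 55.4 and 45.7 CPM after PBS and at 83.3, 82.5 and 77.0 CPM after morphine, a rise of 0.85 (SE 0.12, adjusted p = 0.00080). Slc7a11 was at 25.96, 28.8 and 30.8 CPM after PBS and at 51.1, 47.5 and 45.5 CPM after morphine, a rise of 0.76 (SE 0.074, adjusted p = 0.00018). In each of these 3 genes the lowest morphine library was above the highest PBS library. Slc38a1, the neuronal glutamine carrier, rose from 216 to 254 CPM after PBS to 274 to 301 CPM after morphine, a smaller change of 0.33 (SE 0.063, adjusted p = 0.0046).

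Slc6a6 moved the other way. Its level was 254.5, 256 and 262 CPM after PBS and 213, 204 and 208 CPM after morphine, and it fell by 0.30 on the log2 scale (SE 0.044, adjusted p = 0.0011). The myo-inositol and taurine carriers, both osmolyte transporters, thus moved in opposite directions in the same libraries. Slc7a5 was at 57.9, 53.8 and 54.0 CPM after PBS and at 48.1, 48.9 and 49.5 CPM after morphine, a log2 change of -0.17 (SE 0.055, adjusted p = 0.047). This call was lost with DESeq2 (adjusted p = 0.16), without a filter on low values (0.076) and without a trend in limma (0.11), and it held in 1 of the 6 fits that left out a library. Slc38a1 also lost its call without the trend (adjusted p = 0.061). Nfat5 (0.02, SE 0.060) and Slc3a2 (0.0067, SE 0.064) were not called, with Nfat5 at 189, 215 and 194 CPM after PBS and at 207, 208 and 186 CPM after morphine. Beside these changes, all 8 medium spiny neuron markers passed the test as lower, as did 4 of 7 oligodendrocyte and 4 of 7 microglia markers. Of 8 astrocyte markers 4 were called higher and 1 lower, and of 5 choroid plexus and meninges markers tested 3 were called higher. The part of these shifts was not tested.

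In the NAc of VDR+/+ mice none of the 8 genes passed the threshold with limma, where 0.813% of 15749 genes did. Unadjusted, 5 of them had a limma p under 0.05, as did 2616 of all 15749 genes. Of the 8, edgeR called 0 and DESeq2 called 1, Slc6a6 (log2 change -0.44, adjusted p = 0.00812). With limma, Slc6a6 was at 239.8, 269.7 and 293 CPM after PBS and at 204, 188 and 195 CPM after morphine, with a log2 change of -0.44 (SE 0.091, adjusted p = 0.080). Slc5a3 was at 64.8, 31.0 and 51.5 CPM after PBS and at 79.6, 81.2 and 74.0 CPM after morphine (0.75, SE 0.24, adjusted p = 0.19). Slc7a11 was at 40.3, 14.4 and 34.6 CPM after PBS and at 48.9, 58.1 and 45.3 CPM after morphine (0.90, SE 0.35, adjusted p = 0.26). In these 3 genes the PBS and morphine libraries did not overlap, and PBS mouse 2 was the lowest library of Slc5a3 and Slc7a11 but the middle PBS library of Slc6a6. There was no overlap either for Slc38a1 (200 to 249 CPM after PBS, 266 to 299 after morphine) and Slc7a5 (55.6 to 59.6 and 48.7 to 55.1 CPM). The share of all genes without such overlap was not computed, here or in the other comparisons, so lack of overlap is a description only. Slc38a2 was at 89.1, 97.1 and 103 CPM after PBS and at 140.4, 102.5 and 149 CPM after morphine, so the groups overlapped (0.43, SE 0.15, adjusted p = 0.21). Slc38a1 had a log2 change of 0.36 (SE 0.10, adjusted p = 0.15) and Nfat5 one of 0.43 (SE 0.27, adjusted p = 0.46). Without PBS mouse 2, 2 genes were called, Slc5a3 (0.45, adjusted p = 0.047) and Slc6a6 (-0.42, adjusted p = 0.035). The share of all genes called in that fit is not given here. Without that mouse the changes of Slc7a11 and Nfat5 went to 0.45 and 0.07.

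Whether the morphine response of the NAc differed between the genotypes was tested directly, each genotype's effect being taken from its own table. None of the 8 differences passed the threshold with limma and edgeR called 0, and over all 15788 genes 0% passed with limma. Unadjusted, 0 of the 8 had a limma p under 0.05, against 916 of all genes. VDR-/- minus VDR+/+ ran from -0.41 (SE 0.31, adjusted p = 0.87) for Nfat5 to 0.26 (SE 0.21, adjusted p = 0.87) for Slc38a2. For Slc7a11 the difference was -0.15 (SE 0.39, adjusted p = 0.96) and for Slc5a3 0.10 (SE 0.30, adjusted p = 0.96). Without VDR+/+ PBS mouse 2 the differences were -0.053 for Nfat5, 0.31 for Slc7a11 and 0.40 for Slc5a3, with adjusted p of 0.92, 0.63 and 0.62. The changes called in VDR-/- mice are therefore not shown to differ from those of VDR+/+ mice in this region.

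In the VTA of VDR+/+ mice none of the 8 genes passed with limma, against 3.65% of 16187 genes. Of the 8, 4 had an unadjusted limma p under 0.05, as did 3919 of all 16187 genes. EdgeR and DESeq2 each called 0 of the 8. Slc38a2 was at 180.3, 206 and 200.5 CPM after PBS and at 183, 182 and 196 CPM after morphine (log2 change -0.05, SE 0.080, adjusted p = 0.76). Slc5a3 was at 84.99, 74.2 and 72.2 CPM after PBS and at 106, 82.2 and 91.3 CPM after morphine (0.22, SE 0.11, adjusted p = 0.28). Slc7a11 was at 48.5, 43.5 and 58.7 CPM after PBS and at 68.3, 56.9 and 53.8 CPM after morphine (0.37, SE 0.11, adjusted p = 0.11). For these 3 genes the groups overlapped. Slc38a1 was at 497, 501.5 and 488 CPM after PBS and at 439.9, 436 and 427 CPM after morphine, which did not overlap (-0.20, SE 0.062, adjusted p = 0.12). Slc6a6 (-0.25, SE 0.078), Slc7a5 (-0.23, SE 0.10) and Slc3a2 (-0.15, SE 0.061) had adjusted p of 0.12, 0.23 and 0.20, and Nfat5 was at 0.0062 (SE 0.081). Slc6a6 (153 to 191 CPM after PBS, 130 to 143 after morphine), Slc7a5 (82.2 to 83.9 and 63.1 to 79.4) and Slc3a2 (94.1 to 100.9 and 86.0 to 89.4) did not overlap either. As in the NAc, the share of all genes without such overlap was not computed. The deposited table leaves out PBS mouse 3. With that mouse, Slc6a6 was called (-0.33, adjusted p = 0.044), in a fit that called 2001 of all 16269 genes. Without morphine mouse 1.1 Slc7a5 was called (-0.32, adjusted p = 0.032), and the share of all genes in that fit is not given here. Beside these values, 6 of 8 dopamine neuron, 6 of 7 microglia and 2 of 8 astrocyte markers passed the main test as lower. Of 7 oligodendrocyte markers 0 passed. The part of these shifts in the values was not tested.

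Side by side, the log2 change after morphine in the VTA was -0.05 in VDR+/+ and 0.89 in VDR-/- mice for Slc38a2, or -0.06 and 0.64 with all PBS mice. For Slc5a3 it was 0.22 and 0.84, and for Slc7a11 0.37 and 0.76. The differences between the genotypes were 0.94, 0.61 and 0.39, or 0.70, 0.50 and 0.35 with all PBS mice. Without VDR-/- PBS mouse 7 the difference of Slc7a11 turned to -0.068. These differences are given without a test because the genes were chosen with the VDR-/- response in view. Dopamine neuron markers in the VTA after morphine were at 125 to 406 CPM in VDR+/+ and 433 to 909 CPM in VDR-/- mice, and the part of this in the difference was not tested.

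**Figure D3:**
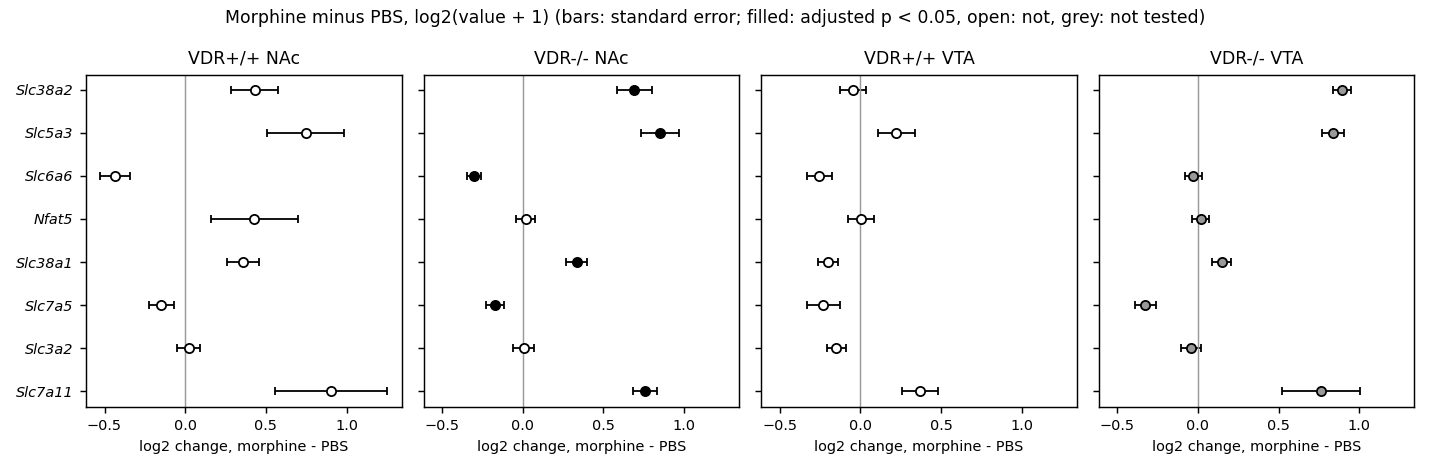
Log2 change from PBS to morphine on the log2(value + 1) scale (x axis) of each gene (y axis) in both genotypes and regions, with bars for the SE. Filled points passed an adjusted p of 0.05 with limma, open points did not, and the grey points of the VDR-/- VTA were not tested. Slc38a2 is at -0.05 in the VDR+/+ VTA and between 0.43 and 0.89 in the other 3 panels.

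Over all genes, the trend of level with exon length moved with the injection in the VTA. There, Spearman's rho between exon length and relative level was 0.051 to 0.19 in the 6 morphine libraries and -0.26 to -0.051 in the 6 PBS libraries. In the NAc the injections overlapped. VDR-/- libraries had rho of 0.080 to 0.27 after morphine and -0.085 to 0.089 after PBS. VDR+/+ libraries had 0.095 to 0.25 after morphine and -0.47 to 0.11 after PBS. Genes with at least 8000 exon bases, among which are Slc38a2 (8838), Slc6a6 (8457), Slc5a3 (10913), Slc7a11 (13922), Slc38a1 (17236) and Nfat5 (18378), had a median log2 change after morphine of 0.037 in the VDR-/- NAc, 0.061 in the VDR-/- VTA, 0.041 in the VDR+/+ VTA and 0.14 in the VDR+/+ NAc. In the VDR-/- NAc, 15.7% of such genes were called higher and 8.88% lower. In a fit chosen after seeing the data, the length trend of each library was taken out. Slc38a2, Slc5a3 and Slc7a11 then rose by 0.66, 0.81 and 0.72 in the VDR-/- NAc (adjusted p = 0.0017, 0.00080 and 0.00021), Slc38a1 rose by 0.30 and Slc6a6 fell by 0.33, while Slc7a5 was not called (adjusted p = 0.066). In the VDR-/- VTA, Slc38a2, Slc5a3 and Slc7a11 were at 0.85, 0.78 and 0.70. In the VDR+/+ NAc, Slc38a1 went from 0.36 to 0.13 and Nfat5 from 0.43 to 0.18.

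**Figure D4:**
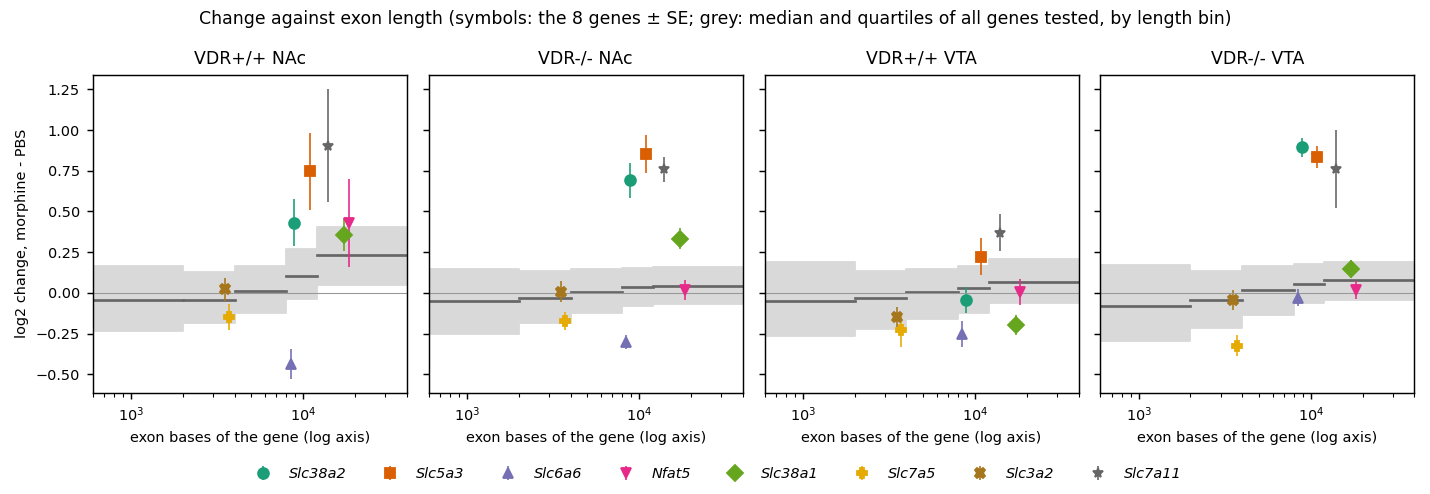
Log2 change from PBS to morphine (y axis) against exon bases of the gene (log x axis), with symbols and SE bars for the 8 genes and grey bands for the quartiles of all genes tested in 5 length bins. Slc38a2, Slc5a3 and Slc7a11 lie above the band in both regions of VDR-/- mice, and the band itself rises with length most in the VDR+/+ NAc.

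The comparison of genotypes asked whether these genes differed with the receptor lost. Its PBS and morphine groups are the same libraries as in the morphine comparisons. Slc38a2 (chr15:96687392-96699730) and Slc38a1 (chr15:96571418-96642913) lie 1.15 and 1.21 Mb from Vdr (chr15:97854425-97910630; GENCODE M21, GRCm38), so both lie near the altered locus, and the part of that position in the values was not tested. In the NAc none of the 8 genes passed with limma after PBS, where 0.069% of 15933 genes did, or after morphine, where 0.192% of 15638 did. In both cases 0 had an unadjusted limma p under 0.05, against 1424 of all genes after PBS and 1209 after morphine. EdgeR and DESeq2 called 0 of the 8 in both. After PBS, VDR-/- minus VDR+/+ ran from -0.09 (SE 0.14) for Slc38a2 to 0.34 (SE 0.28) for Nfat5, and Nfat5 went to -0.016 without VDR+/+ mouse 2. Slc5a3 had a difference of -0.05 (SE 0.27), and of -0.35 (adjusted p = 0.41) without that mouse. Slc38a1 had a difference of 0.07 (SE 0.11). Slc7a11 had one of 0.08 (SE 0.35), and of -0.38 (adjusted p = 0.18) without that mouse. After morphine the differences ran from -0.08 (SE 0.061) for Slc7a5 to 0.17 (SE 0.11) for Slc38a2, with Slc38a1 at 0.04 (SE 0.058).

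In the VTA the genotypes were compared as a description, since 2 of these groups enter the contrast known at the choice of genes. After PBS, Slc5a3 was lower in VDR-/- mice, at 50.1 to 57.8 CPM against 72.2 to 84.99 CPM, a log2 difference of -0.50 (SE 0.081). Slc38a1 was at 388 to 466 CPM in VDR-/- mice and 488 to 502 CPM in VDR+/+ mice, a log2 difference of -0.20 (SE 0.070). Slc7a11 was at 22.5 to 43.7 against 43.5 to 58.7 CPM, overlapping by mouse 9 (-0.50, SE 0.24, and -0.19 without VDR-/- mouse 7). Slc38a2 overlapped through VDR-/- mouse 8 (-0.16, SE 0.19). The higher level of Slc5a3 after morphine in VDR-/- mice, 83.9 to 95.1 CPM, lay within the range of VDR+/+ morphine mice, 82.2 to 106 CPM. Slc38a2 after morphine was at 258 to 282 CPM in VDR-/- and 182 to 196 CPM in VDR+/+ mice, without overlap, a log2 difference of 0.54 (SE 0.057). The other 7 genes had differences of -0.16 to 0.13 after morphine.

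The regions were compared within the same mouse. The VTA libraries of VDR-/- mice, whose values were known when the genes were chosen, enter this test, so the counts are also given for the 6 VDR+/+ mice. Over all 12 mice, 7 of the 8 genes passed the test of NAc against VTA, 1 higher and 6 lower in the NAc, where 72.5% of 16560 genes passed (33.7% higher and 38.8% lower), so a count of this size is close to that of any genes. Slc38a2 was 1.79-fold and Slc38a1 1.78-fold higher in the VTA, each in 12 of 12 mice (log2 NAc minus VTA -0.84, SE 0.049, adjusted p = 5.5e-08, and -0.83, SE 0.041, adjusted p = 2.1e-08). Slc7a5 was 1.45-fold higher in the VTA in 12 of 12 mice (-0.54, SE 0.032, adjusted p = 6.6e-08). Its heavy chain Slc3a2 was 1.16-fold higher in 11 of 12 (-0.22, SE 0.041, adjusted p = 0.00064). Slc5a3 was 1.27-fold higher in the VTA in 12 of 12 mice (-0.34, adjusted p = 0.0015) and Slc7a11 1.30-fold in 9 of 12 (-0.38, adjusted p = 0.0093). The taurine carrier Slc6a6 was the one gene of the 8 called as higher in the NAc, 1.51-fold and in 12 of 12 mice (0.59, SE 0.030, adjusted p = 2.5e-08). Nfat5 was not called (0.08, SE 0.081, adjusted p = 0.40). Without VDR+/+ PBS mouse 2, Nfat5 was called as higher in the NAc (0.16, adjusted p = 0.000844). In VDR+/+ mice alone 7 genes were called in the same directions, with Slc38a2 at -0.78 (adjusted p = 0.00027), Slc38a1 at -0.90 (adjusted p = 9.1e-05) and Slc6a6 at 0.58 (adjusted p = 0.00012). Fits that ignored the pairing by mouse called the same number of genes, 7. For VDR+/+ mice alone and for these fits the share of all genes called is not given here. Those counts are therefore not read as a result about the 8 genes.

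**Figure D5:**
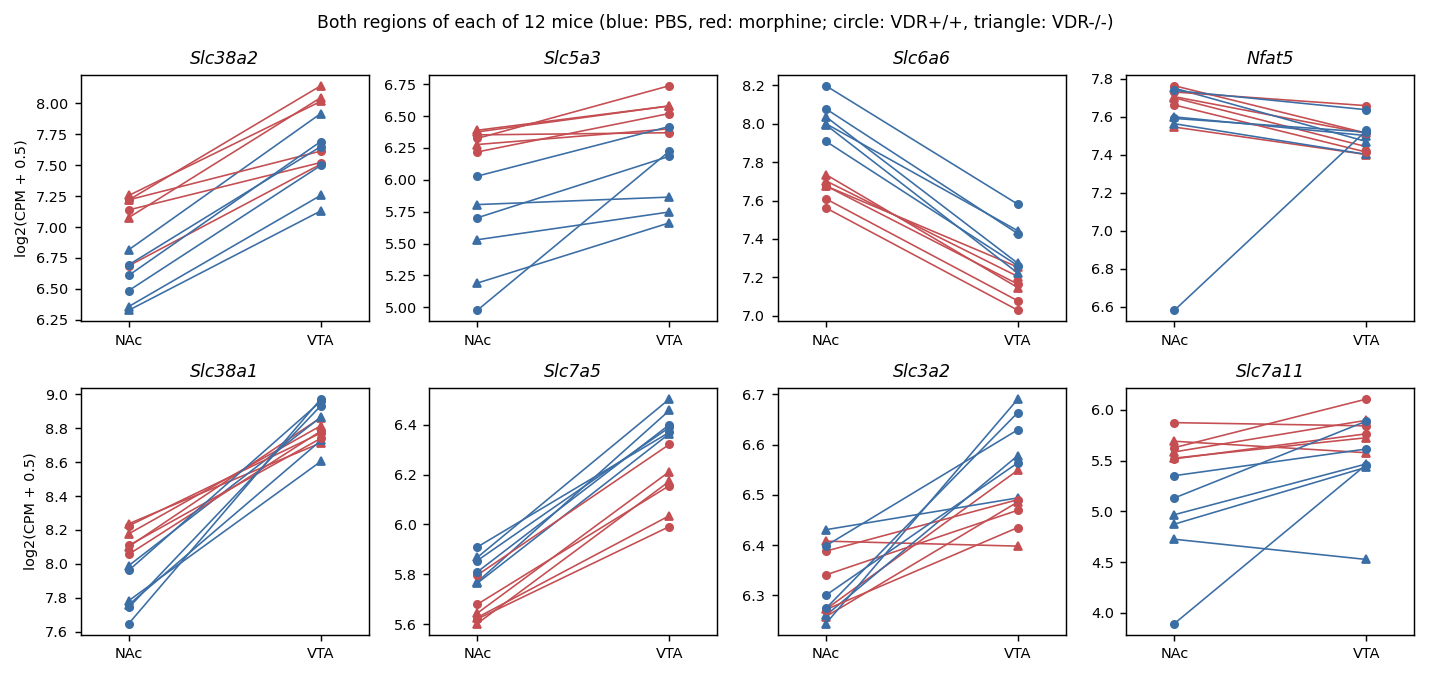
Level as log2(CPM + 0.5) (y axis) in the NAc and VTA (x axis), 1 line per mouse, blue for PBS, red for morphine, circles for VDR+/+ and triangles for VDR-/- mice. All 12 lines rise from NAc to VTA for Slc38a2, Slc38a1, Slc5a3 and Slc7a5, all 12 fall for Slc6a6, and the steep line of Nfat5 is VDR+/+ PBS mouse 2.

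The genes were also compared across the 24 libraries after the mean of each region was subtracted, as a description. Slc5a3 and Slc7a11 were the most alike pair of the set (Pearson's r = 0.89), and Slc5a3 was the second most similar of 11822 genes to Slc7a11, between Ago2 (0.89) and Cpsf6 (0.88). Slc5a3 had r of 0.73 with Slc38a1, 0.64 with Slc38a2, -0.68 with Slc6a6 and -0.75 with Slc7a5. The genes most like Slc5a3 were Zdbf2 (0.95), Uba6 (0.93) and Ints8 (0.93). Slc38a2 was most like Sema3c (0.84), Ncbp3 (0.84) and Cbs (0.83), the last of which encodes cystathionine beta-synthase, an enzyme of sulfur amino acid metabolism. Slc38a1 was most like St8sia6 (0.89), Dpysl3 (0.88) and Glra1 (0.87). Slc7a5 was most like Iffo1 (0.92), Pllp (0.92), a myelin gene, and Slc48a1 (0.92). Slc6a6 was most like Wdr73 (0.87), Lmo4 (0.86) and Rps6ka4 (0.85), Slc3a2 most like Nfix (0.77), Htra3 (0.74) and Nadk2 (0.71), and Nfat5 most like Usp24 (0.98), Mdm4 (0.97) and Dok6 (0.97). Slc7a5 had r of 0.45 with its heavy chain Slc3a2, and Slc7a11 had r of -0.011 with it. Without the NAc library of VDR+/+ PBS mouse 2, a choice made after seeing the data, Slc5a3 and Slc7a11 had r of 0.85, Slc5a3 and Slc38a1 0.65, and Nfat5 had r of 0.83 with Usp24, 0.73 with Mdm4 and 0.68 with Dok6. These values share the libraries, the difference between PBS and morphine groups and the exon length trend. The libraries include those of the VDR-/- VTA, whose morphine response was known when the genes were chosen. Likeness between genes of the set is therefore not independent of that choice, and values without those libraries are not given here.

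The neighbouring pathways were read in the NAc of VDR-/- mice, where all comparisons of lists are counts beside the shares of all genes given above. Of 13 osmotic response genes tested, 5 rose and 2 fell. Those with the largest changes were the inducible heat shock genes Hspa1b (1.55, adjusted p = 0.0070) and Hspa1a (1.41, adjusted p = 0.00063), Ranbp3l (1.20, adjusted p = 0.011) and Zfp36l1 (0.69, adjusted p = 0.0054). Of 14 genes of osmolyte metabolism and release, 5 rose and 3 fell. Slc6a13 and Slc6a11, carriers of GABA, and Slc5a11, a second myo-inositol carrier, rose by 1.02 (adjusted p = 0.0011), 0.67 (adjusted p = 0.0048) and 1.02 (adjusted p = 0.032), and Impa2, an enzyme that frees myo-inositol, fell by 0.57 (adjusted p = 0.028). The osmotic list had a median log2 change of 0.15 and the metabolism list one of 0.041.

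Of 28 ATF4 and amino acid response genes tested in the same tissue, 5 rose and 1 fell, with a median of 0.14. Nupr1 rose by 0.82 (adjusted p = 0.040), the cationic amino acid carrier Slc7a3 by 0.41 (adjusted p = 0.043) and Atf4 itself by 0.30 (adjusted p = 0.0071), while Phgdh, the first enzyme of serine synthesis, fell by 0.28 (adjusted p = 0.016). Of 29 other amino acid transporters 4 rose and 3 fell, with a median of -0.0080, among them Slc38a11 (0.81, adjusted p = 0.015), Slc7a8 (-0.48, adjusted p = 0.0037), Slc38a6 (0.37, adjusted p = 0.0084) and Slc7a10 (0.32, adjusted p = 0.022). Of 12 cysteine and glutathione genes, the factor Nfe2l2 rose (0.32, adjusted p = 0.049) and Gpx4 fell (-0.20, adjusted p = 0.032). Of 12 immediate-early genes 9 rose, with a median of 0.89, led by Nr4a3 (1.30, adjusted p = 0.0011), Arc (1.28, adjusted p = 0.00073), Fosl2 (1.19, adjusted p = 0.00039) and Fos (1.11, adjusted p = 0.0011).

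In the VTA of VDR-/- mice, the contrast known at the choice of genes, the lists are described by their medians alone. The median log2 change after morphine was 0.20 for the osmotic response, -0.094 for osmolyte metabolism, -0.018 for the ATF4 list, 0.0045 for other amino acid transporters, -0.14 for cysteine and glutathione genes and 0.47 for immediate-early genes, beside -0.0018 over all genes. Nfe2l2, which rose in the NAc of these mice, had a log2 change of -0.46 (SE 0.092) there.

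In VDR+/+ mice 2 of 109 genes of the 6 lists passed in the NAc (1.83%, against 0.813% of all genes) and 4 of 108 in the VTA (3.70%, against 3.65%). In the NAc they were Atf3 (1.72, adjusted p = 0.038) and Fosl2 (0.82, adjusted p = 0.039), both higher. In the VTA they were Fosb (1.16, adjusted p = 0.033) and Fosl2 (0.99, adjusted p = 0.027), which rose, and the water channel Aqp4 (-0.90, adjusted p = 0.0089) and the glutathione synthesis gene Gclm (-0.29, adjusted p = 0.049), which fell. Aqp4 is also one of the astrocyte markers. Between the regions, 33.7% of all genes were called higher and 38.8% lower in the NAc. The osmotic response list had 0 of 14 genes higher and 8 lower, with a median log2 difference of -0.34, and the ATF4 list 5 higher and 16 lower of 29. Of all 111 genes of the 6 lists tested, 74.8% passed, near the 72.5% of all genes. The osmolyte metabolism list had 8 higher and 5 lower of 15, with Slc6a11 lowest in the NAc (-2.15, adjusted p = 1.2e-08).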

How the data were processed

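RNA-seq libraries (24) were prepared with a directional kit and sequenced as paired ends. Per the submitters' processing notes and the methods, reads were processed with CASAVA 1.8, trimmed with Trimmomatic 0.36, aligned with STAR 2.4.2a and counted per gene; the strand column counted is not given in the sources used here. The authors deposited 8 tables of signal on the scale of counts divided by DESeq2 size factors, each with the libraries of 2 groups. Dividing by what a read is worth gave whole reads for all values (tolerance 0.01), which were used as recovered counts, 9328726 to 30184426 per library. Each VTA table that sets morphine beside PBS has 5 libraries and lacks a PBS mouse, namely VDR+/+ mouse 3 or VDR-/- mouse 8. No library column was left unused.

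Groups were taken from the labels. Tests used limma 3.58.1 in R 4.3.3, after adding 1 and taking log2, for genes averaging 10 or more (trend, two-sided, Benjamini-Hochberg over all genes, threshold 0.05), fitting only the groups compared; the added 1 understates changes of low genes. NAc and VTA were compared within mouse on log2(CPM + 0.5), TMM-scaled with edgeR 4.0.16, at a mean of at least 0.5 CPM. Same-numbered libraries of both regions were taken to come from the same mouse, which is the pairing used and rests on the numbers in the labels. The labels do not say how mice were housed or bred, so p-values cover the spread between these mice. Alternatives were edgeR, DESeq2 1.42.0, other pseudocounts, filters and scalings, and leaving out each library. A fit without the exon length trend was added after seeing the data. The fits were tested on simulated data.

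The members and lists were chosen with earlier results of these data known. All 8 members are named in each main comparison, from each list at most the 4 genes with the largest change past the threshold, and for each member the 3 genes with the highest Pearson's r among those at a mean of at least 5 CPM. Gene positions and exon lengths come from GENCODE M21, which held 30204 of 30270 gene identifiers. Slc5a3 shares 318 exon bases with Mrps6 and another gene on its strand, and Slc6a6 shares 117 with a gene on the other strand, so reads there may be split.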

Additional observations from a re-analysis of the deposited data

Results flagged for a closer look

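After morphine, Slc38a2 was above the mean of the PBS libraries in all 3 VDR+/+ NAc libraries and below it in all 3 VDR+/+ VTA libraries. In the VTA this rested on 1 library: morphine mouse 1.2 was at 195.5 CPM, below the PBS mean of 195.7 CPM but above the PBS mean of 195.4 CPM when averaged on the log scale. The mean log2(CPM + 0.5) difference from PBS was 0.416 in the NAc and -0.0679 in the VTA. In the VTA of VDR-/- mice all 3 morphine libraries were above the PBS mean of mice 7, 8 and 9, with a mean difference of 0.591, opposite to the VDR+/+ VTA. Slc38a1 showed the same split between regions in VDR+/+ mice, at 0.339 in the NAc and -0.189 in the VTA. These differences between groups were not tested, and they were picked out because every morphine library of one group moved opposite to every morphine library of the other. Groups of 3 libraries were not put to a test for outlying samples.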

How the results depend on the processing

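The 6 genes called in the VDR-/- NAc became 5 with DESeq2, without the length trend and without a filter on low values, 4 without a trend in limma, and 5 to 6 when a library was left out. The 0 called in the VDR+/+ NAc became 1 with DESeq2 and 0 to 2 when a library was left out. The 0 called in the VDR+/+ VTA became 1 with all 3 PBS mice, a fit that called 2001 of all 16269 genes. It became 0 to 1 when a library was left out. Shares of all genes are not given here for fits with a library left out. In the VDR-/- VTA, Slc38a2 went from 0.89 to 0.64 with all 3 PBS mice. The tested values that changed sign included these. In the VDR+/+ VTA, Nfat5 was -0.0095 with quantile normalization, -0.024 with all PBS mice, -0.069 without the length trend and -0.058 to 0.059 over libraries left out (-0.0079 to 0.02035 over PBS libraries), and Slc38a2 -0.15 to 0.060. Slc3a2 was -0.0081 with quantile normalization and -0.0034 to 0.053 over libraries left out (-0.0032 to 0.05195 over PBS libraries) in the VDR+/+ NAc, and -0.0038 and -0.040 to 0.067 (-0.02885 without PBS mouse 8) in the VDR-/- NAc. Nfat5 in the VDR-/- NAc was -0.016 without the length trend and -0.019 to 0.073 over libraries left out (-0.0057 and -0.0083 without morphine mice 2.0 and 2.1). For the genotype in PBS NAc, Slc7a11 was -0.067 with edgeR, -0.055 with DESeq2 and -0.38 to 0.36 over libraries left out, Nfat5 -0.016 to 0.56, Slc5a3 -0.35 to 0.18 and Slc38a1 -0.0029 to 0.16. The genotype difference of the morphine effect was -0.43 to 0.31 for Slc7a11 and -0.13 to 0.40 for Slc5a3. Over libraries left out, that difference was -0.11 to 0.047 for Slc38a1, -0.059 to 0.023 for Slc7a5 and -0.061 to 0.046 for Slc3a2. Slc6a6 was -0.12 to 0.023 and Slc3a2 -0.064 to 0.031 for the genotype in PBS NAc. For the genotype in morphine NAc, Slc3a2 was -0.068 to 0.0089 and Slc7a11 -0.15 to 0.026. Between regions Nfat5 was -0.034 in VDR+/+ mice and -0.038 in PBS mice. The cause was not tested. Without the replicate block by mouse, 7 genes were called between regions and Slc38a2 kept a difference of -0.84. No paired analysis of genotype or injection was possible because those groups share no mouse numbers.

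With 3 mice a group, or 2 PBS mice in the VTA tables, small changes could pass or miss the threshold by 1 library. The tests of genotype in the NAc had standard errors of up to 0.35 for Slc7a11, which limits the changes that could pass. Of 1028 single-gene values recomputed under other settings, 47 had another sign than the main value. This count leaves out genes whose main value the results do not print for the NAc genotype comparisons and the genotype difference of the morphine effect. Some of those also changed sign, so the total is larger.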
